A study of Mus musculus with 6 samples.

Results

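The core circadian clock loop was followed in mouse liver through 9 genes: Arntl, Clock, Npas2, Cry1, Cry2, Per1, Per2, Per3 and Rora. A gene's probes were all those whose RefSeq accession belongs to it, which gave 18 probes of 56605 tested, and 9 genes of 22911 that could be named on the array. Male mice aged 12 weeks, of a strain not given in the sources used here, lived on a 12 h light-dark cycle with free access to food. For 4 weeks the control group ate regular chow alone, and the soy group ate 75% regular chow with 25% soy bean. Each group held 3 mice, given as biological replicates, and each liver was hybridized to 1 Agilent array, read in 1 colour. The hour at which each liver was collected is not given in the sources used here, so every array is shown, and the part of the hour in any difference was not tested.

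The clock of a liver cell is a loop of transcription and repression that takes about a day. ARNTL (also called BMAL1) pairs with CLOCK or its relative NPAS2 and switches on genes that carry an E-box, among them the Per and Cry genes, whose proteins return to the nucleus and block the pair. A side loop acts on Arntl itself, where ROR receptors such as RORA activate and REV-ERB receptors repress through the same element, the RORE. In liver, feeding time is known to set the phase of this loop, and Arntl and the Per genes are known to peak at opposite times of day.

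Promoter sequence shows the elements through which these genes are known to drive one another. RefSeq windows of GRCm38.p6, running from 250 bases before to 50 bases after an annotated start, were found for 8 of the 9 genes, as 12 windows of 300 bases; Per2 was not in the table. Positions below count the start base as 1 and the base before it as -1. Each window was searched on both strands for the E-box (CACGTG, which reads the same on either strand), the E'-box (CACGTT), the D-box (TTANGTAA), the RORE, the AGGTCA element that lies inside a RORE, and the CRE (TGACGTCA). The stretches that hold an E-box, E'-box, D-box or RORE are printed 5′ to 3′ on the strand of the gene, with the matched letters in capitals; AACGTG is the E'-box read from the other strand.
Arntl: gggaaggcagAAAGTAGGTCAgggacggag
Cry1: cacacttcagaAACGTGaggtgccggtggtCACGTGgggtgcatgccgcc
Per1: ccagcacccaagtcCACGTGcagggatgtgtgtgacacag
Cry2: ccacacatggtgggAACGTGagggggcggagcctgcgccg
Per3: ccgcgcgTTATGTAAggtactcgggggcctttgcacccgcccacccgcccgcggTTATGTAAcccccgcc

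The Arntl stretch, at chr7:113207527-113207556 on the plus strand, held a RORE from base 27 to base 37 after the second of 2 annotated starts, with the AGGTCA element at its 3′ end. The Cry1 stretch, at chr10:85185095-85185144 on the minus strand, held an E'-box from base -79 to -74 and an E-box from base -60 to -55. The Per1 stretch, at chr11:69098769-69098808 on the plus strand, held an E-box from base -166 to -161. The Cry2 stretch, at chr2:92434210-92434249 on the minus strand, held an E'-box from base -166 to -161. The Per3 stretch, at chr4:151044808-151044877 on the minus strand, held a D-box from base -205 to -198 and another from base -158 to -151. Elements for activation by the ARNTL pair thus lay in the windows of repressor genes, and the RORE in that of Arntl. Of all 32851 windows in the table, 7.15% held an E-box, 4.68% an E'-box, 2.32% a D-box, 0.384% a RORE, 16.3% an AGGTCA element and 1.79% a CRE. Among the 8 genes with a window, 2 held an E-box, 2 an E'-box, 1 a D-box, 1 a RORE, 3 an AGGTCA element (Arntl, Clock and Per1) and 0 a CRE. These counts are per gene, and Arntl, Clock and Per1 had several windows each. The shares are per window, so counts and shares are not in the same unit. A match describes letters only, and an element outside these windows was not looked for.

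**Figure D1:**
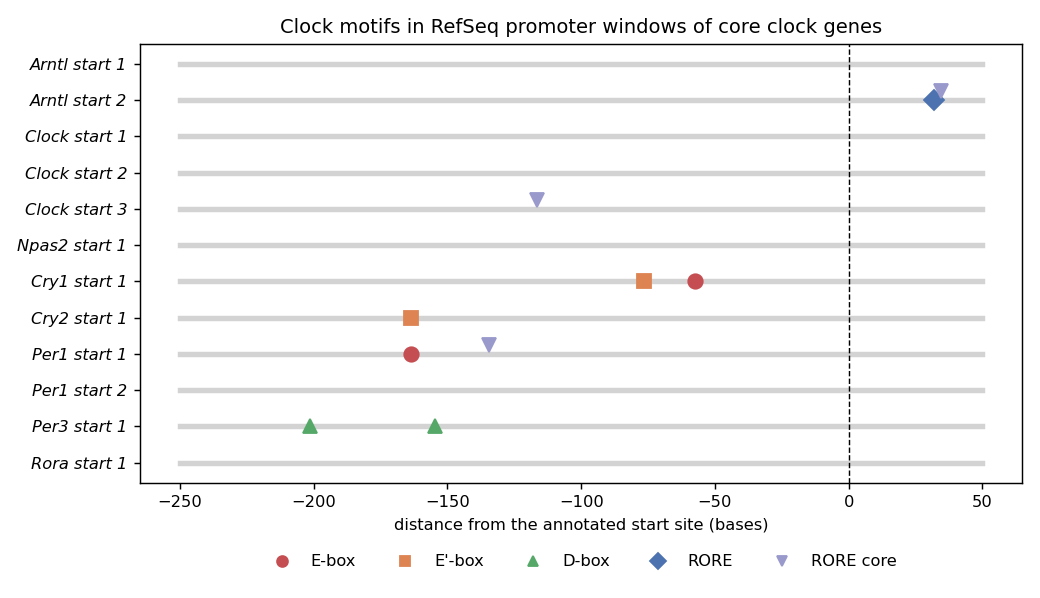
Motif matches in the 12 RefSeq promoter windows of 8 core clock genes, by distance from the annotated start in bases; grey bars are the windows of 300 bases and symbols are the matched motifs, RORE core being the AGGTCA element. E-box and E'-box matches sit in Cry1, Cry2 and Per1, both D-box matches in Per3 and the RORE in Arntl.

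The livers were read as log2 normalized signal, and a difference below is always soy minus control on that scale. Spots well above background numbered 37010, 36366 and 38163 on control arrays 1, 2 and 3 and 31308, 31988 and 32498 on soy arrays 1, 2 and 3, of 59305 spots. The arrays lay on 3 slides: slide 1 carried soy 1 with controls 1 and 2, slide 2 carried soy 2 without a control, and slide 3 carried control 3 together with soy 3. The 10 hepatocyte markers were well above background on every array, with Serpina1a the brightest, and the tissue matched its label. Of these 10 markers 2 were higher and 8 lower in soy, with a median of -0.088. Summed over the list, linear normalized signal of hepatocyte markers was 2824000, 2854000 and 2793000 in controls and 2725000, 2694000 and 2498000 in soy livers, so every soy sum lay below every control sum. A linear sum weighs the brightest markers most, and saturation of their spots was not examined. Of the markers of other liver cells, 7 of 8 Kupffer cell markers were higher in soy (median 0.19, Cd5l the brightest), with sums of 38330, 53400 and 61700 in controls and 48270, 57780 and 70550 in soy. Blood cell markers were also higher in 7 of 8 cases (median 0.28, Hba-a1 the brightest), with sums of 323100, 242300 and 341500 in controls and 255500, 565400 and 321900 in soy. The median differences of endothelial, stellate and cholangiocyte markers were -0.059, -0.12 and 0.088, and the cholangiocyte marker Epcam reached well above background on none of the arrays. No cell marker of any list passed the test, the control and soy sums overlapped for Kupffer and blood cells, and their part in the results below was not tested. In whole liver, fewer cells of a type and less RNA per cell cannot be told apart.

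No core clock gene passed the thresholds of the methods (adjusted p under 0.05 with a fold above 1.5 or under 0.66, limma with Benjamini-Hochberg adjustment over all probes). The same test passed 0.532% of named genes, 122 of 22911, with 0.34% higher and 0.192% lower in soy. Of all probes 0.35% passed, 0.208% higher and 0.141% lower, and 0 of the 18 core clock probes did. By its brightest probe, the one with the highest mean signal over the 6 arrays, 5 genes were higher in soy and 4 lower, or 4 and 4 without Npas2, whose probe stayed at background. The adjusted p of the 18 probes was 0.210 at its smallest, and 13 of these probes were well above background on all 6 arrays. At an unadjusted p under 0.05 in limma, 4 of 9 genes were called, Arntl, Clock and Cry1 higher and Per1 lower, where the same rule called 14.3% of all genes, 7.22% upward and 7.04% downward. In 3 of 9 genes the groups did not overlap, all higher in soy, where 9.68% of all genes had every soy value above every control value and 20.5% did not overlap in either direction. Both counts lay above the shares over all genes, and this excess was not tested. Those shares include genes at background, whereas 8 of the 9 core genes were well above background on all 6 arrays. The sets compared are therefore unlike in signal. The same limit holds wherever a share of all genes is given below.

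**Figure D2:**
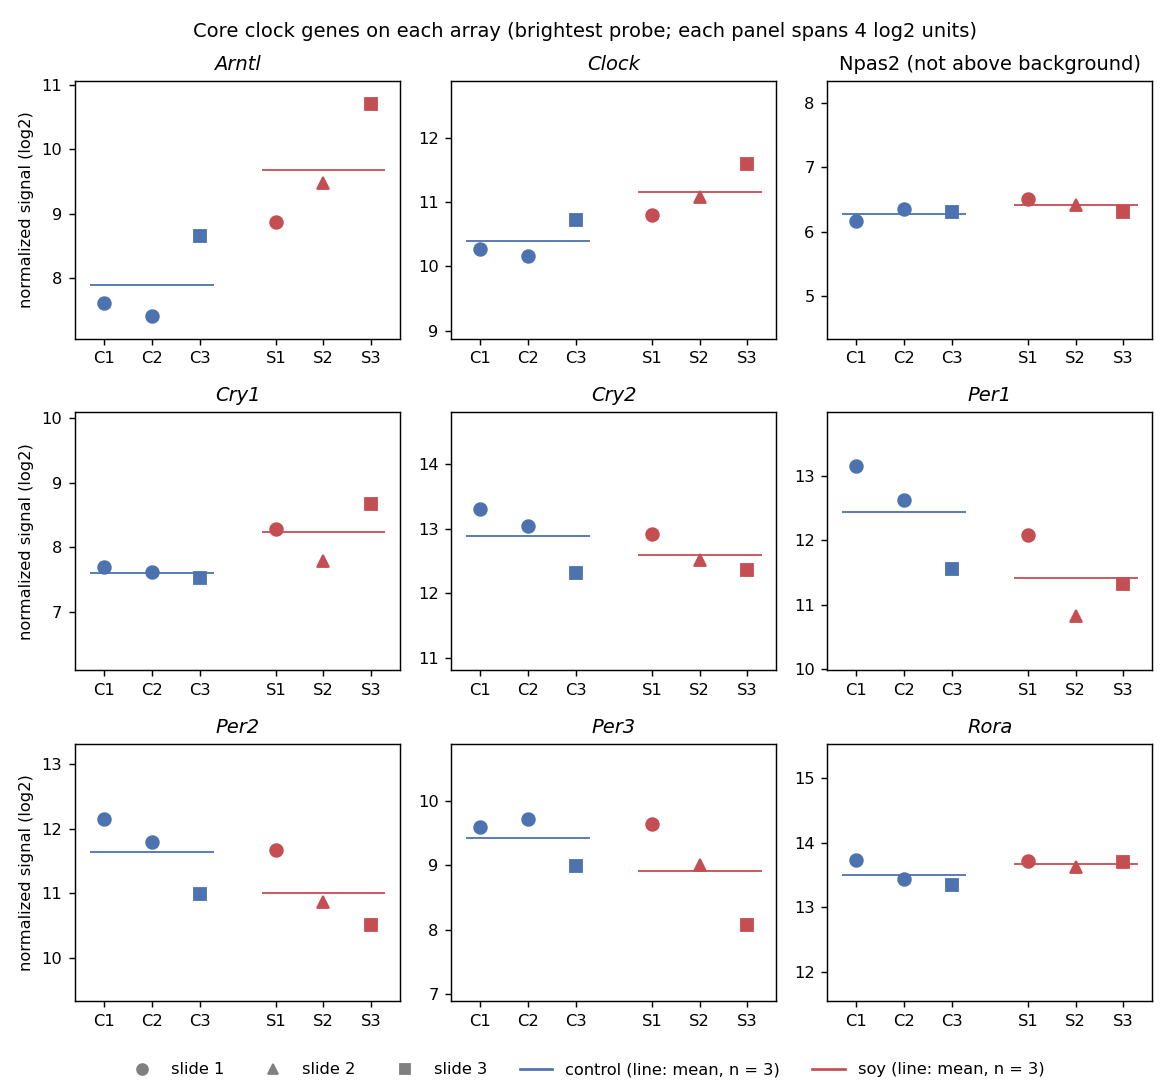
Log2 normalized signal of the brightest probe of each core clock gene on each array, controls (C1 to C3) in blue and soy (S1 to S3) in red; marker shape gives the slide, lines are means of n = 3, and every panel spans the same number of log2 units. Soy values lie above all control values for Arntl, Clock and Cry1, and the control and soy values overlap for the other genes.

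Among the activators, Arntl (NM_007489) was the member with the largest difference. Its log2 signal was 7.61, 7.42 and 8.65 in controls 1, 2 and 3 and 8.87, 9.47 and 10.70 in soy livers 1, 2 and 3. Every soy liver was above every control, with 0.22 between the highest control and the lowest soy value. The means were 7.89 ± 0.67 and 9.68 ± 0.93 (SD, n = 3 each), a difference of 1.79 (SE 0.49, 95% confidence interval 0.65 to 2.93, 3.46-fold, limma adjusted p = 0.210). Within slide 1 the difference was 1.36 and within slide 3 it was 2.05, so soy was the higher on both slides that held both diets.

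The 3 Arntl probes did not give the same picture. A dimmer probe read 6.82, 6.90 and 7.39 in controls and 7.25, 7.61 and 8.39 in soy, a difference of 0.72 (SE 0.29, limma adjusted p = 0.407), and its groups overlapped. The other, well above background on 2 control and 3 soy arrays, read 7.96, 6.72 and 8.52 in controls and 7.16, 7.71 and 8.31 in soy. Its difference was -0.0030 (SE 0.46), and its control values alone spanned more than the difference seen on the brightest probe. All 3 carry the same accession, and where on the transcript each one lies was not examined.

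Clock (NM_007715), the partner of ARNTL and a histone acetyltransferase, ordered the 6 livers exactly as Arntl did: control 2, control 1, control 3, soy 1, soy 2, soy 3 from low to high. Its log2 signal was 10.28, 10.17 and 10.72 in controls and 10.79, 11.07 and 11.59 in soy. The groups were separated by 0.069, the narrowest gap among the 3 genes without overlap. The means were 10.39 ± 0.29 and 11.15 ± 0.40 (SD, n = 3 each), a difference of 0.76 (SE 0.23, 95% confidence interval 0.23 to 1.29, 1.69-fold, limma adjusted p = 0.255). It was 0.57 within slide 1 and 0.86 within slide 3. The other probes of Clock were also higher in soy, by 0.59 (limma adjusted p = 0.329) and by 0.20 on a dim probe that stood well above background on 1 control and 1 soy array, and both overlapped.

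Npas2 (NM_008719), the relative of CLOCK, reached well above background on none of the 6 arrays, so no fold is given. Its single probe read 6.17, 6.34 and 6.30 in controls and 6.51, 6.41 and 6.30 in soy. These values are the level of background, and nothing about Npas2 RNA can be read from their order.

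The cryptochromes, the repressors that bind CLOCK and ARNTL most tightly, are described next. Cry1 (NM_007771) read 7.69, 7.61 and 7.52 in controls and 8.28, 7.78 and 8.67 in soy, and every soy value lay above the controls, with a gap of 0.095. The controls were close together at 7.61 ± 0.086 and the soy livers spread at 8.24 ± 0.45 (SD, n = 3 each). The difference was 0.64 (SE 0.21, 95% confidence interval 0.15 to 1.12, 1.56-fold, limma adjusted p = 0.301), and it was 0.62 within slide 1, 1.16 within slide 3 and 0.42 without soy 3. A dimmer Cry1 probe was higher by 0.28 (limma adjusted p = 0.530), with overlap. Cry2 (NM_009963) read 13.30, 13.04 and 12.32 in controls and 12.92, 12.51 and 12.36 in soy, and all soy values fell inside the control range. Its difference was -0.29 (SE 0.26, 95% confidence interval -0.90 to 0.31, limma adjusted p = 0.721), with -0.26 within slide 1 and 0.048 within slide 3. Single arrays moved it, to -0.084 without control 1 and -0.58 without control 3. Cry2 was the only core gene well above background that changed sign within a slide.

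All 3 Period genes, whose proteins carry the cryptochromes into the repressor complex, had lower means in soy, and none of their brightest probes separated the groups. Per1 (NM_011065) read 13.15, 12.62 and 11.56 in controls and 12.08, 10.82 and 11.32 in soy. Control 3 lay below soy 1, so the groups overlapped, although soy 2 and soy 3 were the lowest livers. The means were 12.44 ± 0.81 and 11.41 ± 0.64 (SD, n = 3 each), a difference of -1.03 (SE 0.44, 95% confidence interval -2.06 to -0.0089, limma adjusted p = 0.431). Within slide 1 it was -0.80 and within slide 3 -0.24, and it was -0.68 without control 1 and -1.48 without control 3.

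Per2 (NM_011066) read 12.15, 11.79 and 10.98 in controls and 11.66, 10.86 and 10.50 in soy. Its 3 highest livers were those of Per1, control 1, control 2 and soy 1 in that order, and control 3 came next in both genes. The difference was -0.63 (SE 0.36, 95% confidence interval -1.48 to 0.22, limma adjusted p = 0.570), with -0.30 within slide 1 and -0.48 within slide 3. It was -0.38 without control 1 or without soy 3, and -0.96 without control 3 or without soy 1. A dimmer Per2 probe was tighter, at 7.74, 7.60 and 7.65 in controls and 7.39, 7.35 and 7.16 in soy. There the groups did not overlap and were 0.21 apart, with a difference of -0.36 (SE 0.11, limma adjusted p = 0.245), -0.28 within slide 1 and -0.49 within slide 3. Over all probes of the array, 18% did not overlap.

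Per3 (NM_001289878) read 9.59, 9.71 and 8.99 in controls and 9.64, 9.0 and 8.07 in soy. Soy 1 was level with controls 1 and 2, and soy 3 stood lowest. The difference was -0.53 (SE 0.38, 95% confidence interval -1.41 to 0.36, limma adjusted p = 0.654), with -0.0070 within slide 1 and -0.92 within slide 3. It rested largely on soy 3, without which it was -0.11, and it was -0.90 without soy 1. The second Per3 probe (NM_011067), well above background on 3 control and 2 soy arrays, was at -0.43 (limma adjusted p = 0.497) and overlapped.

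Rora (NM_013646), whose receptor is known to activate Arntl through a RORE, varied least over the 6 arrays among the genes well above background. It read 13.73, 13.43 and 13.35 in controls and 13.71, 13.62 and 13.70 in soy, with overlap, and the difference was 0.17 (SE 0.12, 95% confidence interval -0.11 to 0.46, limma adjusted p = 0.651). It was 0.093 without control 3 and 0.28 without control 1. A dimmer probe of the same accession read 10.73, 10.99 and 10.97 in controls and 11.19, 11.12 and 11.32 in soy, without overlap, a difference of 0.31 (SE 0.11, limma adjusted p = 0.348). Both probes had the higher mean in soy. The probe of another Rora transcript (NM_001289917) was well above background on soy 2 alone, at 8.95 against 6.32 to 6.70 on the other 5 arrays. Its difference of 0.84 (SE 0.60, limma adjusted p = 0.652) was that of 1 soy array of 3, so no fold is given, and its groups overlapped.

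**Figure D3:**
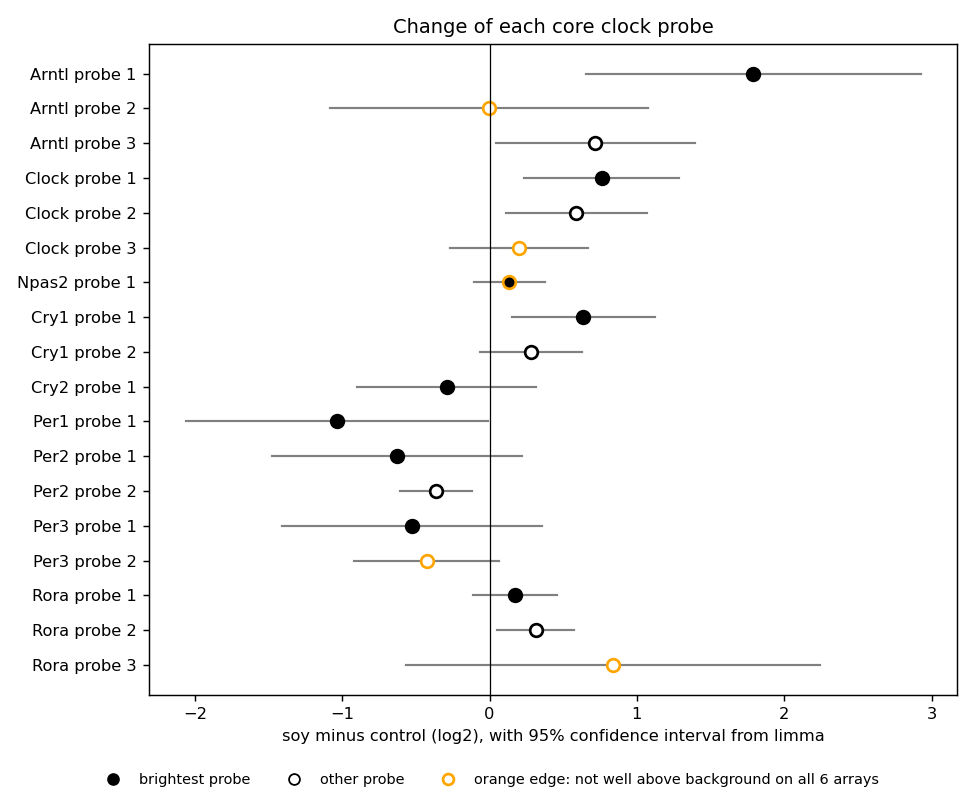
Soy minus control (log2) of each of the 18 core clock probes as points, with the 95% confidence interval from limma as lines; filled points are the brightest probe of a gene, and orange edges mark probes not well above background on all 6 arrays. The probes of a gene lie on the same side of 0 in 5 of the 6 genes with several probes, the exception being Arntl, whose second probe is at -0.0030.

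Control livers differed among themselves in most of these genes, Cry1 being the one with the closest controls. Control 3 was the highest or the lowest control in 8 of the 8 core genes well above background, where 68.1% of 13498 such genes on the array had it at an end. Compared with the mean of controls 1 and 2, control 3 was higher by 1.14 in Arntl and by 0.50 in Clock, and stood at -1.33 in Per1, -0.99 in Per2, -0.86 in Cry2, -0.66 in Per3, -0.23 in Rora and -0.14 in Cry1. Control 3 thus lay towards the soy livers in Arntl, Clock, Cry2 and all Period genes, 6 of 8 genes, where 55.2% of those 13498 genes had control 3 and soy on the same side. In Per1, Per2, Per3, Cry2 and Rora the gap between these controls was larger than the diet difference, and in Arntl, Clock and Cry1 it was smaller. In Cry1 and Rora control 3 was the lowest control and the soy mean was higher. Controls 1 and 2 lay on slide 1 and control 3 on slide 3, so liver and slide cannot be told apart in this comparison.

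Soy livers also differed among themselves, and soy 1 was the highest or lowest soy liver in 7 of 8 genes and soy 3 in 6 of 8, where 67.4% and 68.3% of the 13498 genes had them at an end. From soy 1 to soy 3, Arntl differed by 1.83, Clock by 0.79 and Cry1 by 0.40, whereas Per3 differed by -1.58, Per2 by -1.16, Per1 by -0.76 and Cry2 by -0.55. Thus soy 3 held the highest Arntl, Clock and Cry1 of the 6 livers and the lowest Per2 and Per3. Each soy liver lay on a slide of its own number, so here too liver and slide cannot be told apart. Without control 3, 6 core genes did not overlap, Cry2, Per1 and Per2 being added on the lower side, and without soy 1, 5 did not, with Per1 and Per2 added. With an array fewer more genes do not overlap at all: the share of all genes was 31.7% without control 3 and 32.2% without soy 1, against 20.5% with every array. Within slide 1 all 8 genes had the sign of the difference over all arrays, and within slide 3 this held for 7, all but Cry2. Slide 1 compares 1 soy liver with 2 controls and slide 3 compares 1 with 1. With the slide as a block, soy 2, alone on its slide, adds nothing to the difference, which then rests on 3 controls and 2 soy livers. In that fit no core gene passed in limma, and the differences were 1.66 for Arntl (adjusted p = 0.112), 0.70 for Clock (adjusted p = 0.212), 0.85 for Cry1 (adjusted p = 0.212) and -0.56 for Per1 (adjusted p = 0.441).

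**Figure D4:**
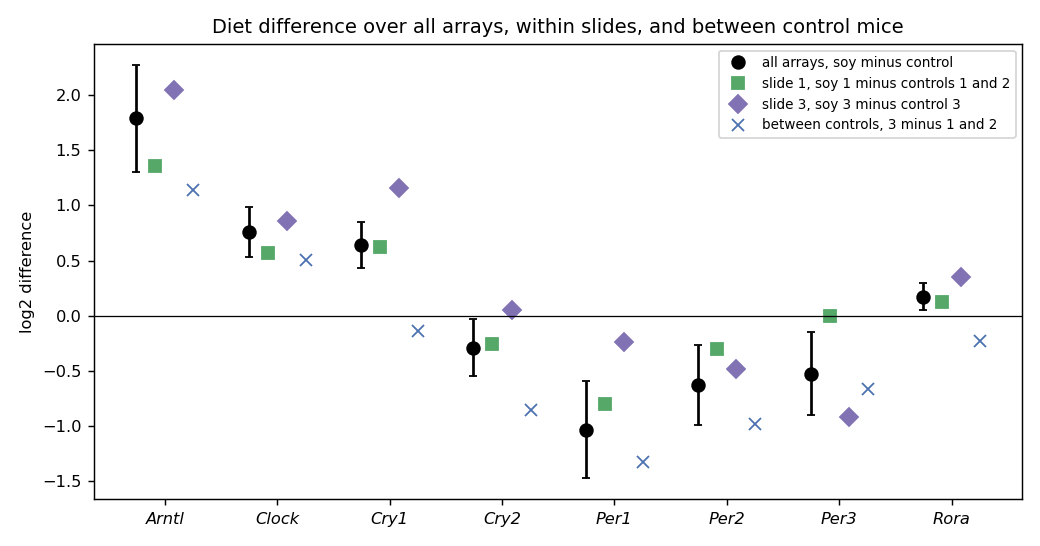
Log2 differences for the 8 core clock genes well above background: soy minus control over all arrays (black, bars are the SE from limma), within slide 1 (green), within slide 3 (purple), and control 3 minus the mean of controls 1 and 2 (blue crosses). The blue crosses lie farther from 0 than the black points for Per1, Per2, Per3, Cry2 and Rora. They compare slide 3 (control 3) with slide 1 (controls 1 and 2) as well as livers.

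The output factors and REV-ERBs, many of which the ARNTL pair drives directly, were mostly lower in soy. Of 12 genes in this list 11 were on the array (Rorb had no named probe), 3 higher and 8 lower in soy, with a median of -0.52 against -0.0056 over all genes. None passed. At an unadjusted p under 0.05 in limma 6 were lower and 1 higher (7.04% and 7.22% of all genes), and 4 were lower and 1 higher without overlap (10.8% and 9.68% of all genes). Dbp, a D-box activator known for one of the widest daily swings in liver, read 15.85, 15.97 and 14.86 in controls and 14.27, 13.86 and 10.76 in soy. The groups did not overlap, soy 3 stood far below the rest, and the difference was -2.59 (SE 0.85, limma adjusted p = 0.300), -1.63 within slide 1 and -4.10 within slide 3. Without soy 3 it was -1.49.

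Ciart, a repressor of the ARNTL pair also called CHRONO, read 10.93, 10.47 and 8.66 in controls and 8.68, 7.54 and 6.68 in soy. Control 3 and soy 1 met at nearly the same value, and the difference was -2.39 (SE 0.66, limma adjusted p = 0.219), with 2 of 3 soy arrays well above background. Nr1d1, which encodes REV-ERB alpha, read 10.03, 10.12 and 10.72 in controls and 8.41, 9.43 and 8.29 in soy. Its groups did not overlap, with a difference of -1.58 (SE 0.32, limma adjusted p = 0.106), and unlike the Period genes its highest liver was control 3.

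Nr1d2 and Hlf are named here after their values were seen. Nr1d2, the second REV-ERB, was at -0.74 without overlap (limma adjusted p = 0.317), and at -0.47 without soy 3. Of the receptors known to act through a RORE, the activating Rora was thus at 0.17 and the repressing ones at -1.58 (Nr1d1) and -0.74 (Nr1d2), none of which passed. Hlf, a D-box activator related to DBP, was at -0.0043 with overlap (limma adjusted p = 0.998), between -0.37 without soy 1 and 0.26 without control 2.

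**Figure D5:**
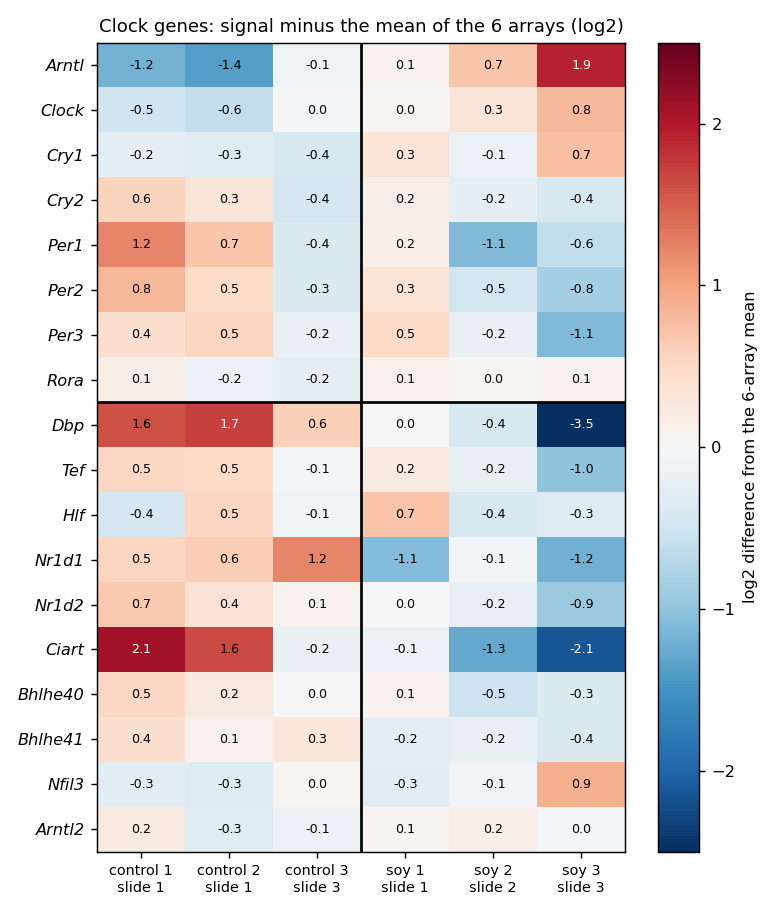
Log2 signal minus the mean of the 6 arrays (colour and printed value), by array. The upper block holds the 8 core clock genes well above background. The lower block holds 10 of the 11 output factors and REV-ERBs on the array. Arntl runs from low in controls 1 and 2 to high in soy 3, while Dbp and Ciart run from high in controls 1 and 2 to low in soy 3, with control 3 and soy 1 in between.

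Enzymes that modify clock proteins were higher as often as lower. All 20 were on the array, 10 on each side (median -0.018), 0 passed in limma, 4 of 20 had an unadjusted p under 0.05 (14.3% of all genes), and 3 were higher and 1 lower without overlap (20.5% of all genes in both directions), counts near those over all genes. Usp2, a deubiquitinase that acts on clock proteins, had the largest difference, reading 12.67, 12.72 and 11.55 in controls and 11.97, 10.87 and 10.53 in soy, -1.19 with overlap (SE 0.43, limma adjusted p = 0.348). Its livers again ran from controls 1 and 2 down to soy 3, with control 3 below soy 1. Prkaa2, the AMPK subunit known to mark CRY1 for breakdown, was at 0.41 without overlap (limma adjusted p = 0.224). Nampt, which makes the NAD+ that SIRT1 uses, was at 0.36 with overlap (limma adjusted p = 0.60), 0.12 without soy 1 and 0.61 without soy 2. Clock cofactors were mostly lower: 12 of 13 were on the array (Kmt2a had no named probe), 4 higher and 8 lower, with a median of -0.090, 0 passed in limma and 2 of 12 with an unadjusted p under 0.05, near the 14.3% of all genes. Sfpq, a corepressor in the Period complex, was at -0.48 without overlap (limma adjusted p = 0.199). Id2, an inhibitor of helix-loop-helix factors, was at 0.38 without overlap (limma adjusted p = 0.20). Timeless, a replication fork protein named for its fly relative, was at -0.35 with overlap (limma adjusted p = 0.532), -0.22 without control 2 and -0.56 without control 3.

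Output genes known to be rhythmic in liver were mostly lower in soy. All 9 were on the array, 3 higher and 6 lower, with a median of -0.50, 0 passed in limma, and 4 of 9 were lower without overlap, each with an unadjusted p under 0.05, where 10.8% of all genes were lower without overlap and 7.04% were lower at that p. Upp2, a uridine phosphorylase, read 14.22, 14.38 and 13.53 in controls and 13.04, 12.32 and 11.67 in soy, a difference of -1.70 (SE 0.35, limma adjusted p = 0.118). Noct, which encodes nocturnin, read 13.85, 13.38 and 12.35 in controls and between 12.22 (soy 1) and 11.27 (soy 3) in soy, a difference of -1.54 (SE 0.39, limma adjusted p = 0.183). In both genes control 3 was the control nearest to soy and soy 3 the lowest liver. Alas1, the first enzyme of haem synthesis, was at -0.81 without overlap (limma adjusted p = 0.165), but its highest liver was control 3.

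Genes that follow feeding state or glucocorticoids, which are known to act on the liver clock, held the only members of the clock-related lists that passed. Of 13 genes, 5 were higher and 8 lower, with a median of -0.64. At an unadjusted p under 0.05 in limma 2 were higher and 7 lower (7.22% and 7.04% of all genes), and 3 were higher and 5 lower without overlap (9.68% and 10.8% of all genes). Pdk4, a kinase that shuts pyruvate dehydrogenase and is induced by fasting, rose from 9.01, 8.43 and 8.42 in controls to 10.52, 10.63 and 10.32 in soy, by 1.87 (SE 0.18, limma adjusted p = 0.0151). Igfbp1, a secreted binding protein that insulin represses, fell from 15.13, 14.69 and 14.28 in controls to 11.73, 12.16 and 12.72 in soy, a difference of -2.5 (SE 0.29, limma adjusted p = 0.0244). In both genes the spread within each diet was small beside the difference, unlike in Arntl and the Period genes.

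Genes that follow body temperature, another known signal to the liver clock, were also mostly lower. Of 8 genes 3 were higher and 5 lower (median -0.48), 0 passed in limma, 5 of 8 had an unadjusted p under 0.05 (14.3% of all genes), and 4 were lower and 1 higher without overlap (10.8% and 9.68% of all genes). The list holds chaperone genes and others, so its median does not describe a single response. Cirbp, named here after its values were seen, was higher by 0.71. Hspa1b, an inducible HSP70 chaperone, read 13.78, 11.39 and 12.10 in controls and 11.12, 10.23 and 11.19 in soy, a difference of -1.58 without overlap (SE 0.57, limma adjusted p = 0.347). Its near-identical copy Hspa1a, whose probes may share target RNA with it, was at -1.23 with overlap (limma adjusted p = 0.532). Dnajb1, the HSP40 partner of HSP70, was at -0.89 without overlap (limma adjusted p = 0.304). Control 1 was the highest liver in all 3 of these chaperone genes, and without it the differences were -0.90 (Hspa1b), -0.46 (Hspa1a) and -0.56 (Dnajb1). Hspa1a was at -1.85 without control 2.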

How the data were processed

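Liver RNA of 6 mice was labelled in 1 colour and hybridized to Agilent G3 mouse arrays. Per the file headers, the authors deposited Feature Extraction 11.5.1.1 output, which gives a median intensity per spot and a median of the background around it, both as scanned. Processed log2 values, deposited by the authors as a separate table, had array medians between 7.33 and 7.34 and differed from the values used here by 0.056 at most. They served as an alternative.

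Median intensities were corrected with normexp (offset 50), stripped of control spots, quantile normalized and log2 transformed, outlier spots were left out, and spots of a probe were averaged. Soy was tested against control with limma 3.58.1 (R 4.3.3) over 56605 probes, with no covariate and with Benjamini-Hochberg adjustment. The fit was tested on simulated data. Precision is limited by having 3 arrays in each group. Accessions were named through a RefSeq table of GRCm38.p6, which matched 32994 probes (58.3%). The array's own coordinates are of another build and are not given. Tables and plots used Python 3.11.15, pandas 2.3.3 and matplotlib 3.10.9.

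The text names all core members with every probe, and from each other gene list that is not a cell type list the members that passed and otherwise the 3 largest differences. It also names the 5 genes nearest to Arntl and to Per2 in profile. Some genes that these rules name are not reported here. The members and lists were chosen with earlier results of these data known. Alternatives changed 1 choice at a time, except that the processed signal replaced both the corrected signal and the scaling: the background (none corrected, or an offset of 16), the scaling (cyclic loess or a 75th-percentile shift), dim probes left out, outlier spots retained, a robust eBayes with trend, a mean over the probes of each gene, a block for replicate or slide, the deposited values, adjusted p without the fold, and leaving out single arrays. A comparison of protein sequences was planned and not run.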

Additional observations from a re-analysis of the deposited data

How the results depend on the processing

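No core clock gene passed under any alternative. Without one array at a time, core genes whose groups did not overlap numbered 3 to 6 (6 without control 3, 5 without soy 1), while the share of all genes rose from 20.5% to between 28.3% and 32.2%, and under the other settings 2 to 4. Probes that passed fell from 198 to 77 with an offset of 16 and to 24 with the slide as a block, and were 299 with a 75th-percentile shift, 493 with only probes well above background, and 13138 with the processed signal, of which 90.8% were higher in soy against 59.6% before. With each array left out they ranged from 23 to 199, being 23 without soy 3, 25 without soy 2, 50 without soy 1, 71 without control 2 and 102 without control 1. Of the other clock genes (output factors, modifiers, cofactors and rhythmic outputs), 0 passed, but 7 did with the processed signal (among them Alas1, Arntl2, Bhlhe41, Noct, Nr1d1 and Upp2), 1 with only probes well above background, and 0 to 1 with one array left out (Noct without control 3). The cause of these moves was not tested, except that the filter adjusts over fewer probes, 32376.

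With the replicate number as a block, 77 probes passed, 1 other clock gene did (Ciart), and Arntl had its smallest adjusted p, 0.0549 in limma, in a range up to 0.461 over all alternatives. Deviations of same-numbered arrays correlated at 0.116, -0.057 and 0.106, and control 2 correlated best with soy 1 (0.093). Pairs 1 and 3, and control 2 with soy 1, share a slide, while control 3 with soy 2 (0.105) shares neither number nor slide, and the labels do not say what the numbers stand for. The difference of Arntl ran from 0.83 with the mean of its probes to 2.32 with the processed signal, and that of Per1 was -0.56 with the slide as a block. Signs reversed only within slide 3, for Cry2 (0.048) and Npas2 (-0.0016). The processed signal and the 75th-percentile shift moved the median of all probes to 0.13, and relative to it Rora was at 0.026 and 0.0053.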

Other observations

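The genes nearest to Arntl in profile were found by the root mean square difference of log2 signal, after each gene's 6-array mean was set to 0, over the 6 arrays and 13497 other genes well above background. Tubb2a, a beta tubulin, came first at 0.170, and among the next were Acnat1, an acyltransferase of the peroxisome, at 0.352, Asns, asparagine synthetase, at 0.363, and Gm38426 at 0.408. Tubb2a read 12.52, 12.37 and 13.29 in controls and 13.50, 13.97 and 15.31 in soy, a difference of 1.53 (SE 0.45, limma adjusted p = 0.254; 1.0 without soy 3), and put the livers in the order of Arntl and Clock. None of the 5 nearest genes passed. They were chosen for closeness to Arntl, which did not pass, so this outcome and the like order of livers largely follow from the choice.

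Nearest to Per2 were Efhd2, a calcium-binding protein, at 0.160, B4galt5, a galactosyltransferase, at 0.162, Gys2, liver glycogen synthase, at 0.168, Herpud1, a protein of the endoplasmic reticulum stress response, at 0.175, and Tmc7 at 0.188. Gys2 read 15.96, 15.76 and 14.94 in controls and 15.61, 14.72 and 14.83 in soy, a difference of -0.50 with overlap (limma adjusted p = 0.606), and is also among the rhythmic liver genes described above. Single arrays moved it, to -0.30 without control 1, -0.80 without control 3 and -0.78 without soy 1. Efhd2 read 13.73, 13.57 and 13.01 in controls and 13.28, 12.80 and 12.34 in soy, in the order of the livers seen in Per2, a difference of -0.63 (limma adjusted p = 0.432) that was -0.39 without soy 3. No other Per or Cry gene was among the 5. These genes were likewise chosen for closeness to Per2, so a like order of livers is no separate result.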
